A study of Mus musculus with 16 samples.

Results

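The 6 interferon-induced genes Oas1a, Oas1b, Oas2, Oas3, Oasl1 and Oasl2 encode the oligoadenylate synthetases (OAS) and the OAS-like proteins of the mouse. They were taken by gene symbol from a table of read counts with 54532 gene entries, and all 6 were present. A filter on low counts kept 17736 entries for testing, among them 4 of the 6 genes (Oas1a, Oas1b, Oas2 and Oasl2). Oasl1 was therefore read from a fit without that filter, and Oas3, with 34 counts over all libraries, from its counts alone.

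OAS enzymes bind double-stranded RNA in the cytosol and then join ATP into short chains with 2′-5′ bonds, known as 2-5A. 2-5A is a second messenger of antiviral defence that leads to the breakdown of viral and cellular RNA and so stops protein synthesis. Type I interferon induces the OAS genes through a complex that holds STAT2 and IRF9, at interferon-stimulated response elements, and in the brain microglia are a main responding cell type.

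The libraries were bulk RNA-seq of brain tissue from female mice aged 9 months, 4 in each of 4 genotype groups. The groups were Ch25h+/+ Tau- and Ch25h+/+ Tau+ mice, which carry Ch25h (cholesterol 25-hydroxylase, the enzyme that makes 25-hydroxycholesterol), and Ch25h-/- Tau- and Ch25h-/- Tau+ mice, which lack it. Tau+ marks the mice with the tau allele, and the labels name neither the tau line, nor its promoter, nor how Ch25h was deleted. No treatment is named for any group. The sample labels give frontal cortex and the series' design text gives hippocampus. Summed over 4 cortical markers (Tbr1, Cux2, Rorb and Lamp5), libraries had a normalised read count of 513 to 706 CPM (counts scaled to library size by TMM), and over 5 hippocampal markers (Prox1, Dsp, Calb2, Wfs1 and Fibcd1) 122 to 277 CPM, with no marker at 0 in any library.

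Depth was 15530352 to 25602500 counts per library, so that 3 counts were worth 0.117 to 0.195 CPM. All 8 Ch25h-/- libraries had 0 counts of Ch25h, and the Ch25h+/+ groups had 0.370 ± 0.144 CPM without tau and 0.963 ± 0.319 CPM with it (SD, n = 4). Libraries also fell into 2 classes by reads from a ribosomal RNA gene model, with 2289 to 5684 CPM in 7 libraries and 111 to 475 CPM in 9. All 7 of the first class were Ch25h-/-, and the 1 Ch25h-/- library in the second was Ch25h-/- Tau+ replicate 1. Ch25h+/+ Tau+ replicate 1 stood apart over all genes, with a chi-square per gene of 24.7 to 39.5 against the others of its group, which had 13.9 to 16.9 among themselves. Ch25h-/- Tau+ replicate 1 did so too, with 20.1 to 26.7 beside 8.33 to 10.6. Nothing in the labels states how mice relate to libraries beyond 1 record each, so p-values measure the spread between these libraries.

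The genes lie in 2 clusters on chromosome 5 (GRCm38, GENCODE M21). Oasl2 (114896936 to 114912234, plus strand) and Oasl1 (114923240 to 114937915, plus strand) span 41.0 kb. The second cluster, 191.3 kb long and 5792.4 kb away, runs from Oas2 (120730333 to 120749853, minus strand) and Oas3 (120753098 to 120777661, minus strand) to Oas1b (120812635 to 120824163, plus strand), Oas1a (120896256 to 120907521, minus strand) and further Oas1 copies. The annotation types Oas1b, known as a flavivirus resistance gene, as a polymorphic pseudogene, since some laboratory strains carry a broken allele. Oas1b and its neighbour Oas1c point away from each other with 120 bases between their first bases.

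Sequence decided how far Oas1a could be read alone. Of the 50-base stretches of its transcript, 57.6% also occurred in Oas1g, a neighbouring copy, while Oas1b shared 2.98% with any other gene, Oasl2 0.138%, and Oas2 and Oasl1 0%. How reads that fit both copies were counted is not given in the sources used here, so Oas1a values below are uncertain between Oas1a and Oas1g. An exon of Oasl1 overlaps Gm13822 on the other strand, which had 3 counts over all libraries.

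The stretches before the start sites are shown because Oas genes are known interferon targets and Oas1a, Oas1b and Oasl2 were high together in 1 library. They are RefSeq sequence on GRCm38.p6, written 5′ to 3′ on the gene's strand. Capitals mark matches to GAAANNGAAA, the core of the interferon-stimulated response element, or to its reverse complement TTTCNNTTTC. Promoter entries were found for 4 of the 6 genes (Oas1a, Oas3, Oasl1 and Oasl2), and were not used here for Oas1b and Oas2. The stretches are Oas1a (chr5:120907526-120907625, minus), Oas1g (chr5:120887614-120887713, minus), Oas3 (chr5:120777670-120777759, minus), the bases between Oas1c and Oas1b on the strand of Oas1c (chr5:120812515-120812634, minus), and Oasl2 (chr5:114896834-114896933, plus).
Oas1a: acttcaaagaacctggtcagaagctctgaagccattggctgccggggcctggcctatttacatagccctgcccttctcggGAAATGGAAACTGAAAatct
Oas1g: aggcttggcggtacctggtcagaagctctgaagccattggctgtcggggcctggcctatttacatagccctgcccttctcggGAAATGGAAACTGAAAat
Oas3: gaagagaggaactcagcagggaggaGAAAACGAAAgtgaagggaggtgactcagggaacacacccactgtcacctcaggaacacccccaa
Oas1c to Oas1b: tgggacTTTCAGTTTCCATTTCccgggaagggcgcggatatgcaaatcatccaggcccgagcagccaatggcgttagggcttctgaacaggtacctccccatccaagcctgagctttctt
Oasl2: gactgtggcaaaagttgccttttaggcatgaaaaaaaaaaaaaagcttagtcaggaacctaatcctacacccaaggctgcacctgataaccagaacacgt

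Oas1a held 2 overlapping matches that began 20 and 14 bases before its start site, and Oas1g the same 2 matches at 18 and 12 bases. Oas3 held 1 match at 75 bases. The bases between Oas1c and Oas1b held 2 overlapping matches on the reverse strand, 114 and 108 bases before the start of Oas1c, next to the first exon of Oas1b. No match fell in the windows of Oasl1 and Oasl2 (250 bases before to 50 after the start site), which says only that these letters are not in those windows. Of 32851 promoter windows of that length, 1131 (3.44%) held the motif on either strand. Oas1a and Oas1g matched at 261 of 306 aligned columns of the window, or 85.3%.

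Compared per length, the genes were scarce and differed widely in level. In Ch25h+/+ Tau- brain Oasl2 had 0.519 CPM per kb of exon (range 0.340 to 0.644), Oas1a 0.359 (0.267 to 0.526), Oas1b 0.291 (0.255 to 0.354), Oas2 0.131 (0.0679 to 0.194), Oasl1 0.0641 (0.0386 to 0.0886) and Oas3 0.0136 (0.00654 to 0.0183). The library ranges of Oasl2, Oas1a and Oas1b all overlapped each other, as did those of Oas2 and Oasl1. Oas3, the long 3-domain synthetase, was below every library of each of the others. In Ch25h+/+ Tau+ brain the order of the means was the same, from Oasl2 at 1.97 ± 0.889 CPM per kb (SD, n = 4) to Oas3 at 0.0368.

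**Figure D1:**
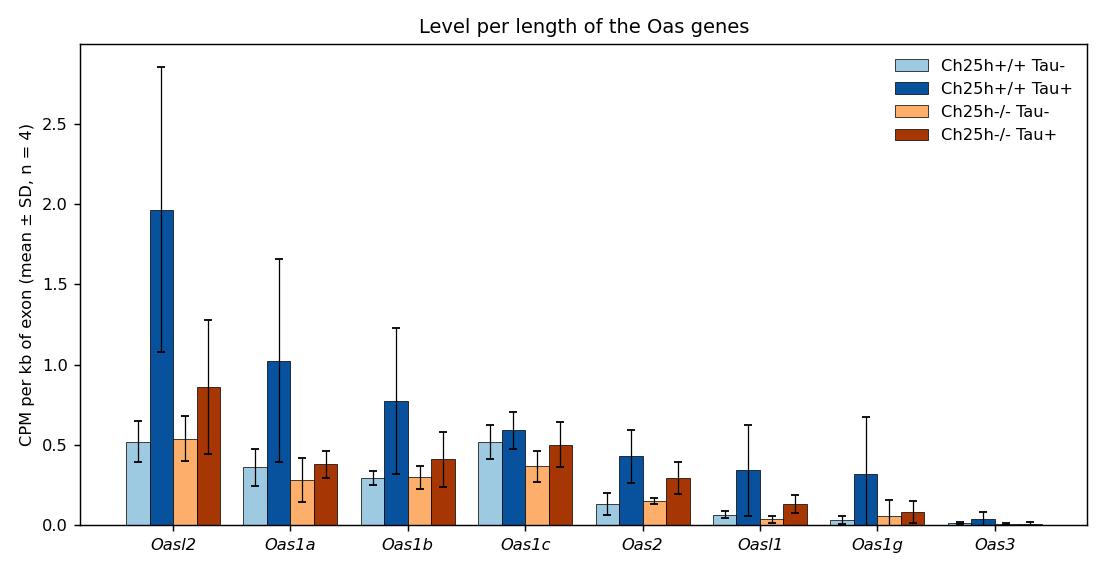
Mean level per length (CPM per kb of exon, ± SD, n = 4 libraries) of the 6 genes and of Oas1c and Oas1g in the 4 groups. Oasl2 in Ch25h+/+ Tau+ is the highest bar, at 1.97 CPM per kb, and Oas3 is the lowest of the 6 genes.

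The first comparison asked how the tau allele changed these genes in mice that carry Ch25h. Oasl2 and Oas2 rose, by 3.77-fold and 3.20-fold, and Oasl1 rose in the fit without a count filter. Oas1a and Oas1b were 2.77-fold and 2.59-fold higher but did not pass the threshold (Benjamini-Hochberg adjusted p under 0.05). In the fit without a filter, where 1.14% of genes were called, Oas1a passed (edgeR adjusted p = 0.0336) and Oas1b did not (edgeR adjusted p = 0.0681). In 5 of the 6 genes, all but Oas3, every Tau+ library lay above every Tau- library, against 3.89% of all tested genes with such a rise. In bulk tissue, more or fewer cells of a type and more or less RNA per cell cannot be told apart.

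Oasl2, an OAS-like protein with ubiquitin-like domains, read 3.42, 4.10, 3.54 and 2.17 CPM in the 4 Ch25h+/+ Tau- libraries and 20.5, 10.7, 11.7 and 7.19 CPM in the 4 Ch25h+/+ Tau+ libraries. The groups did not overlap, and replicate 1 with tau was the highest of all 16 libraries. The log2 difference was 1.91 (SE 0.32, adjusted p = 0.00261, edgeR quasi-likelihood test with Benjamini-Hochberg adjustment). Without that replicate it was 1.58 (edgeR adjusted p = 0.00696).

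Oas2, the 2-domain synthetase, read 0.832, 0.328, 0.863 and 0.302 CPM without tau and 2.09, 2.65, 1.999 and 0.887 CPM with it. The lowest Tau+ library, replicate 4, lay just above the highest Tau- library. The log2 difference was 1.68 (SE 0.38, edgeR quasi-likelihood test, Benjamini-Hochberg adjusted p = 0.0259). Leaving out Tau+ replicate 1 gave 1.64 with an edgeR adjusted p of 0.0519. When each library was left out in turn, Oas2 missed the threshold in 5 of 16 fits, those without Tau- replicate 2 or 4 or without Tau+ replicate 1, 2 or 3.

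Oas1a, a single-domain synthetase, read 0.554, 0.656, 0.992 and 0.504 CPM without tau and 3.70, 1.60, 1.16 and 1.26 CPM with it. Oas1b read 0.508, 0.547, 0.561 and 0.705 CPM without tau and 2.90, 1.22, 0.976 and 1.07 CPM with it. For both, Tau+ replicate 1 lay well above the other 3 Tau+ libraries, which sat close together. The log2 differences were 1.47 (SE 0.39, edgeR adjusted p = 0.0710) for Oas1a and 1.38 (SE 0.37, edgeR adjusted p = 0.0851) for Oas1b. Without Tau+ replicate 1 they were 0.98 and 0.91, and without Tau+ replicate 3 Oas1a was called (edgeR adjusted p = 0.0467). With the reads of Oas1g added to Oas1a, a choice made after seeing the data, the means were 0.748 ± 0.258 and 2.68 ± 2.02 CPM (SD, n = 4), and the log2 difference was 1.80 (SE 0.46, edgeR adjusted p = 0.0605). Oas1g alone had 0, 1, 3 and 2 counts without tau and 32, 12, 4 and 7 with it, and a log2 difference of 3.21 in the fit without a filter (edgeR adjusted p = 0.0405). Without Tau+ replicate 1 that difference was 2.15 (edgeR adjusted p = 0.444), and the call was also lost without Tau- replicate 1, 2 or 4.

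Oasl1, an OAS-like protein known to hold back translation of Irf7 mRNA, had 5, 3, 4 and 2 counts without tau and 32, 9, 10 and 16 with it. The groups did not overlap, and replicate 1 again stood highest, at 1.97 CPM beside 0.379 to 0.747 CPM in the others. The summed counts, 67 against 14, gave a depth-scaled ratio of 4.79 (exact 95% interval 2.66 to 9.22, counting error only). In the fit without a filter the log2 difference was 2.32 (SE 0.57, edgeR adjusted p = 0.0217), where 1.14% of genes were called. It was 1.62 without Tau+ replicate 1 (edgeR adjusted p = 0.325), and the call was also lost without Tau- replicate 2, 3 or 4 and in limma-voom. Oas3 had 1, 2, 3 and 2 counts without tau and 11, 2, 5 and 1 with it, so its groups overlapped, and most libraries were at or under 3 counts.

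Of the 4 tested genes, 2 were called higher in Ch25h+/+ Tau+, beside 1.56% of all tested genes called in either direction. DESeq2 called 4 of the 4 and limma-voom 1. The share of all genes that these tools call was not computed, here or below, so the percentages given are from edgeR. In edgeR all 4 had an unadjusted p below 0.05, beside 9.38% of all tested genes. Their median log2 difference was 1.57, beside -0.01 over all 17736 tested genes. All 8 libraries of the comparison belonged to the class with few ribosomal RNA reads.

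**Figure D2:**
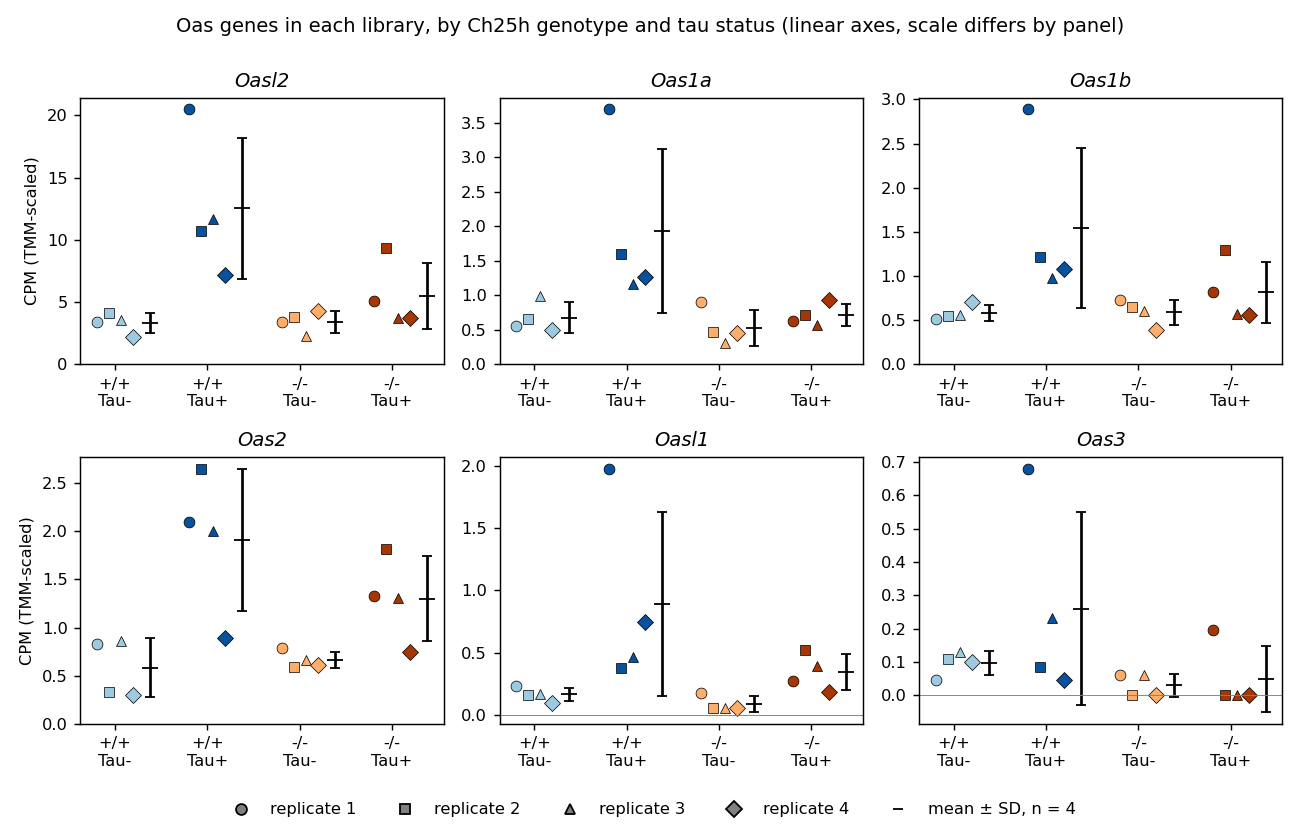
Normalised read count (CPM) of each of the 6 genes in the 16 libraries by group, 1 point per library with the mean ± SD (n = 4). In Ch25h+/+ Tau+, replicate 1 is the highest library for Oasl2 (20.5 CPM), Oas1a (3.70 CPM) and Oas1b (2.90 CPM), and Oas3 reaches at most 0.678 CPM.

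The same tau comparison in mice without Ch25h used 8 other libraries. No tested gene passed the threshold there, beside 0.0395% of all tested genes called (7 genes), and DESeq2 and limma-voom also called 0 of the 4. In edgeR 1 of the 4, Oas2, had an unadjusted p below 0.05, beside 3.68% of all tested genes. Oasl1 was the 1 gene of the 6 whose Tau+ libraries all lay above the Tau- libraries, beside 1.14% of all tested genes with such a rise.

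Oasl2 read 3.37, 3.82, 2.23 and 4.29 CPM in Ch25h-/- Tau- and 5.05, 9.36, 3.75 and 3.75 CPM in Ch25h-/- Tau+. Replicate 2 with tau was the highest and the other 3 lay within or just above the Tau- range. Its log2 difference was 0.66 (95% interval -0.03 to 1.36). Oas2 read 0.783, 0.588, 0.663 and 0.614 CPM and, with tau, 1.33, 1.82, 1.31 and 0.749 CPM, of which only replicate 4 fell into the Tau- range. Its log2 difference of 0.97 (95% interval 0.14 to 1.80) had an edgeR adjusted p of 1.

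Oas1a read 0.904, 0.471, 0.301 and 0.446 CPM in Ch25h-/- Tau- and 0.626, 0.715, 0.568 and 0.937 CPM in Ch25h-/- Tau+. Oas1b read 0.723, 0.647, 0.603 and 0.390 CPM and, with tau, 0.822, 1.30, 0.568 and 0.562 CPM. The groups overlapped for both, with log2 differences of 0.41 (95% interval -0.52 to 1.34) and 0.45 (-0.39 to 1.30). Oasl1 had 3, 1, 1 and 1 counts without tau and 7, 8, 7 and 3 with it, a ratio of 3.81 from 25 against 6 counts (exact 95% interval 1.52 to 11.3, counting error only). The separation was narrow, 0.181 CPM at the top of Tau- and 0.187 CPM at the bottom of Tau+, and the edgeR adjusted p in the fit without a filter was 0.881, where 0.0824% of genes were called. Oas3 had 1, 0, 1 and 0 counts without tau and 5, 0, 0 and 0 with it.

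The second question of the design was how loss of Ch25h changed the genes within a tau status. Among Tau+ mice Oasl2 fell, from 12.5 ± 5.67 to 5.48 ± 2.66 CPM (SD, n = 4), a log2 difference of -1.19 (SE 0.32, edgeR adjusted p = 0.0459). It was the 1 of 4 tested genes called, beside 3.55% of all tested genes called in either direction. Both DESeq2 and limma-voom called 1 of the 4, again without a share over all genes. In edgeR 3 of the 4 (Oas1a, Oas1b and Oasl2) had an unadjusted p below 0.05, beside 23.9% of all tested genes. The groups overlapped, since Ch25h-/- Tau+ replicate 2 (9.36 CPM) lay above Ch25h+/+ Tau+ replicate 4 (7.19 CPM). These Ch25h+/+ Tau+ libraries are also the Tau+ side of the first comparison.

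Oas1a went from 1.93 ± 1.19 to 0.711 ± 0.162 CPM (SD, n = 4), with a log2 difference of -1.42 (SE 0.39, edgeR adjusted p = 0.0517). In the fit without a filter, where 2.58% of genes were called, it passed (edgeR adjusted p = 0.0303). It was the 1 gene of the 6 whose groups did not overlap here, beside 5.74% of all tested genes that were lower without overlap. Oas1b had a log2 difference of -0.90 (edgeR adjusted p = 0.146) and Oas2 of -0.55 (edgeR adjusted p = 0.359), from 1.91 ± 0.739 to 1.30 ± 0.437 CPM (SD, n = 4). Oasl1 had 25 counts against 67, a ratio of 0.415 (exact 95% interval 0.251 to 0.666, counting error only), and a log2 difference of -1.34 in the fit without a filter (edgeR adjusted p = 0.191), where 2.58% of genes were called. Of the 67 counts, 32 came from Ch25h+/+ Tau+ replicate 1, and without it the log2 difference was -0.64.

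The Oasl2 call in Tau+ mice was kept in 7 of the 16 fits that left out 1 library, with an edgeR adjusted p of 0.0155 to 0.140 over the 16. It was lost without Ch25h+/+ Tau- replicate 1, 2 or 3, Ch25h+/+ Tau+ replicate 1, 3 or 4, Ch25h-/- Tau- replicate 2, or Ch25h-/- Tau+ replicate 3 or 4. Oas1a was called without Ch25h+/+ Tau+ replicate 2 or 3 or without Ch25h-/- Tau- replicate 1 (lowest edgeR adjusted p over the 16 fits 0.0383). Without Ch25h+/+ Tau+ replicate 1 the log2 difference of Oasl2 was -0.86 (edgeR adjusted p = 0.134), and those of Oas1a and Oas1b were -0.93 and -0.44. With the ribosomal RNA class as a covariate the log2 difference of Oasl2 was -1.30, about as large as without it, and the edgeR adjusted p was 0.976. The 1 Ch25h-/- Tau+ library in the class of the Ch25h+/+ libraries, replicate 1, read 5.05 CPM, below the 4 Ch25h+/+ Tau+ libraries. That single library is all that separates class from Ch25h genotype in the fit.

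Among Tau- mice, loss of Ch25h gave log2 differences of 0.06 for Oasl2 (95% interval -0.66 to 0.77), 0.16 for Oas2 (-0.72 to 1.04), 0.02 for Oas1b (-0.84 to 0.89) and -0.36 for Oas1a (-1.28 to 0.56). None of the 4 passed the threshold in edgeR, DESeq2 or limma-voom, beside 1.03% of all tested genes called by edgeR. An unadjusted p below 0.05 was found in edgeR for 0 of the 4, beside 20.9% of all tested genes. None of the 6 genes had groups without overlap, beside 7.64% of all tested genes higher and 8.58% lower without overlap. Means of Oasl2 were 3.31 ± 0.816 and 3.43 ± 0.884 CPM (SD, n = 4). Oasl1 had 14 and 6 counts, a ratio of 0.522 (exact 95% interval 0.164 to 1.45, counting error only), and was not called in the fit without a filter (edgeR adjusted p = 0.635), where 1.54% of genes were. Every Ch25h-/- Tau- library was in the class with many ribosomal RNA reads and every Ch25h+/+ Tau- library in the other. Class and Ch25h genotype therefore cannot be told apart between these groups.

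The difference between the tau effects of both Ch25h genotypes was tested as an interaction. None of the 4 genes passed, beside 0.0338% of all tested genes (6 genes), and DESeq2 and limma-voom also called 0. Oasl2, with an interaction of -1.25 on the log2 scale (SE 0.46, 95% interval -2.22 to -0.28), was the 1 with an unadjusted p below 0.05 in edgeR, beside 4.13% of all tested genes, and its edgeR adjusted p was 0.856. The estimates for Oas1a, Oas1b and Oas2 were -1.06 (95% interval -2.31 to 0.19), -0.92 (-2.08 to 0.24) and -0.71 (-1.87 to 0.45). For Oasl1 it was -0.45 in the fit without a filter, where 0.168% of genes were called and Oasl1 was not. A larger tau effect with Ch25h than without it is therefore not shown for any of the genes, although Oasl2 and Oas2 passed the threshold in the first genotype only.

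**Figure D3:**
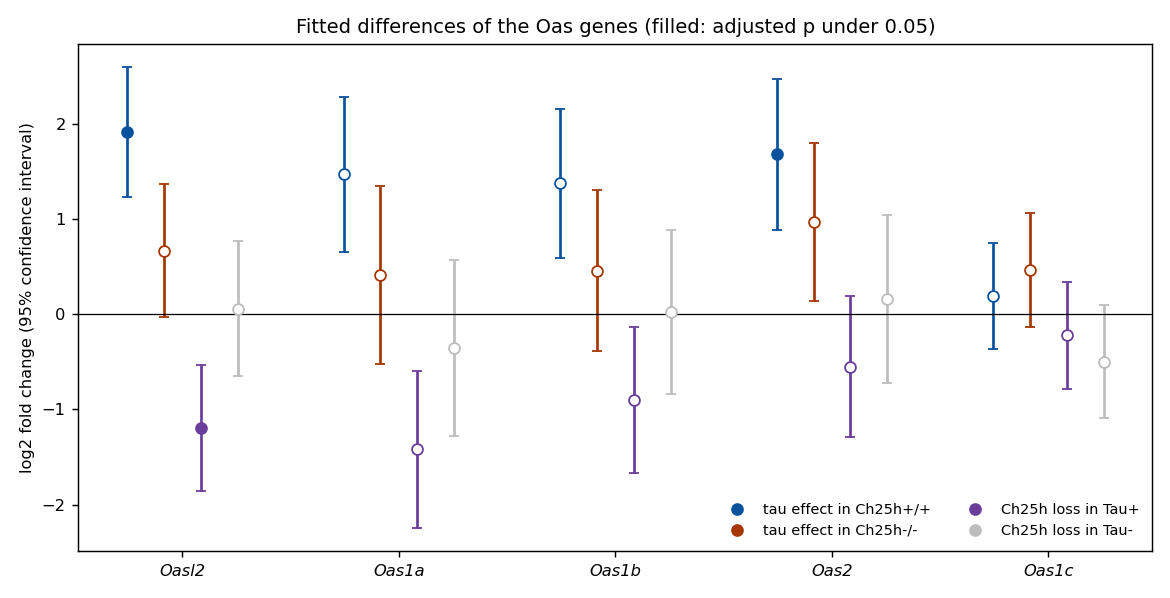
Fitted log2 differences (points) with 95% intervals (lines) of the Oas genes past the count filter in each comparison, with filled points where the adjusted p was below 0.05. Oasl2 and Oas2 are filled for tau in Ch25h+/+ and Oasl2 for Ch25h loss in Tau+.

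Abce1 and 3 enzymes that degrade 2-5A, the product of the synthetases, were also tested. Abce1, a ribosome recycling factor, had 70.3 ± 5.29 CPM in Ch25h+/+ Tau- and 66.7 ± 5.93 CPM in Ch25h+/+ Tau+ (SD, n = 4). Among the 2-5A-degrading enzymes, Pde12 had 18.8 ± 2.52 and 18.5 ± 1.59 CPM, Akap7 34.1 ± 1.27 and 34.7 ± 1.07 CPM, and Enpp1 5.52 ± 1.66 and 7.06 ± 1.33 CPM in the same groups (SD, n = 4). Of these 4 genes, 0 passed in any of the 5 comparisons in edgeR, where 0.0338% to 3.55% of all tested genes were called, so that none among 4 is near the background. In edgeR 2 of the 4, Abce1 and Akap7, had an unadjusted p below 0.05 in each of the comparisons of Ch25h loss, beside 23.9% of all tested genes in Tau+ and 20.9% in Tau-. The lowest adjusted p, in edgeR, was that of Abce1 under loss of Ch25h in Tau+ (log2 difference 0.25, adjusted p = 0.0673).

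The remaining Oas1 copies differed in whether they had counts at all. Oas1c, annotated to start beside Oas1b and to run in the other direction, was the 1 of 6 further copies past the filter. It read 1.57, 1.31, 1.04 and 1.06 CPM in Ch25h+/+ Tau- and 1.36, 1.51, 1.72 and 1.07 CPM in Ch25h+/+ Tau+, which overlap. Its log2 difference with tau was 0.19 (95% interval -0.37 to 0.75), beside 1.38 (0.59 to 2.16) for Oas1b. In Ch25h-/- these were 0.46 for Oas1c and 0.45 for Oas1b. Oas1h had 5 counts over all libraries, and Oas1d, Oas1e and Oas1f were at 0.

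Upstream of the Oas genes, interferon itself was barely seen. Of 20 type I and III interferon genes in the table, 6 had any count, with 7 counts in total over 16 libraries, and Ifnb1 had 0. Of 9 genes of interferon signalling, 1 rose with tau in Ch25h+/+, beside 1.47% of all tested genes called higher. It was Irf7, the transcription factor that amplifies type I interferon (log2 difference 1.79, edgeR adjusted p = 0.00290). Stat2 (0.25, edgeR adjusted p = 0.210) and Irf9 (0.48, edgeR adjusted p = 0.260), members of the complex that induces Oas genes, did not pass. The list's median was 0.25, beside -0.01 over all genes. In edgeR 5 of the 9 had an unadjusted p under 0.05, beside 9.38% of all tested genes.

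Under loss of Ch25h in Tau+, 3 of the 9 signalling genes fell, beside 2.40% of all tested genes called lower. They were the receptor chain Ifnar2 (log2 difference -0.42, edgeR adjusted p = 0.0278), Irf1 (-0.50, edgeR adjusted p = 0.0370) and Irf7 (-1.15, edgeR adjusted p = 0.0424). In the fit without a filter, where 2.58% of genes were called, only Irf7 of these 3 kept its call. Ifnar2 (edgeR adjusted p = 0.0553) and Irf1 (edgeR adjusted p = 0.0615) lost theirs. The median of the 9 was -0.21, beside 0.00 over all genes. In edgeR 5 of the 9 had an unadjusted p under 0.05, beside 23.9% of all tested genes. In the tau comparison of Ch25h-/-, in loss of Ch25h in Tau- and in the interaction, edgeR called 0 of them, beside 0.0395%, 1.03% and 0.0338% of all tested genes. An unadjusted edgeR p under 0.05 was found for 1, 1 and 4 of the 9, beside 3.68%, 20.9% and 4.13% of all tested genes. Under loss in Tau- that gene was Ifnar2 (log2 difference -0.29, edgeR adjusted p = 0.108). Its groups did not overlap there, beside 8.58% of all tested genes lower without overlap. The 9 genes were not fitted with the ribosomal RNA class as a covariate, so for loss of Ch25h class and genotype are not told apart here. Irf7 read 1.85, 2.68, 2.59 and 1.56 CPM in Ch25h+/+ Tau- and 11.5, 6.82, 5.86 and 5.98 CPM in Ch25h+/+ Tau+, with replicate 1 again the highest.

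Of 10 sensors of RNA and DNA, 1 rose with tau in Ch25h+/+, the RNA helicase Ddx58 (RIG-I, log2 difference 0.86, edgeR adjusted p = 0.00691), beside 1.47% of all tested genes called higher. The median of the 10 was 0.59, beside -0.01 over all genes. In edgeR 7 of the 10 had an unadjusted p under 0.05, beside 9.38% of all tested genes. Zbp1, a sensor of Z-form nucleic acid, had a larger estimate at a low count (2.17, edgeR adjusted p = 0.0651). Eif2ak2 (PKR, a kinase that binds double-stranded RNA and blocks translation) was at 0.73 (edgeR adjusted p = 0.136), Ifih1 (MDA5) at 0.56 (edgeR adjusted p = 0.104), Mb21d1 (cGAS) at 0.36 and Tmem173 (STING) at 0.61 (edgeR adjusted p = 0.219). In the other 4 comparisons edgeR called 0 of the 10, where 0.0338% to 3.55% of all tested genes were called, so that none among 10 is near the background. In the tau comparison of Ch25h-/-, loss of Ch25h in Tau+, loss in Tau- and the interaction, 2, 3, 2 and 2 of the 10 had an unadjusted edgeR p under 0.05, beside 3.68%, 23.9%, 20.9% and 4.13% of all tested genes.

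**Figure D4:**
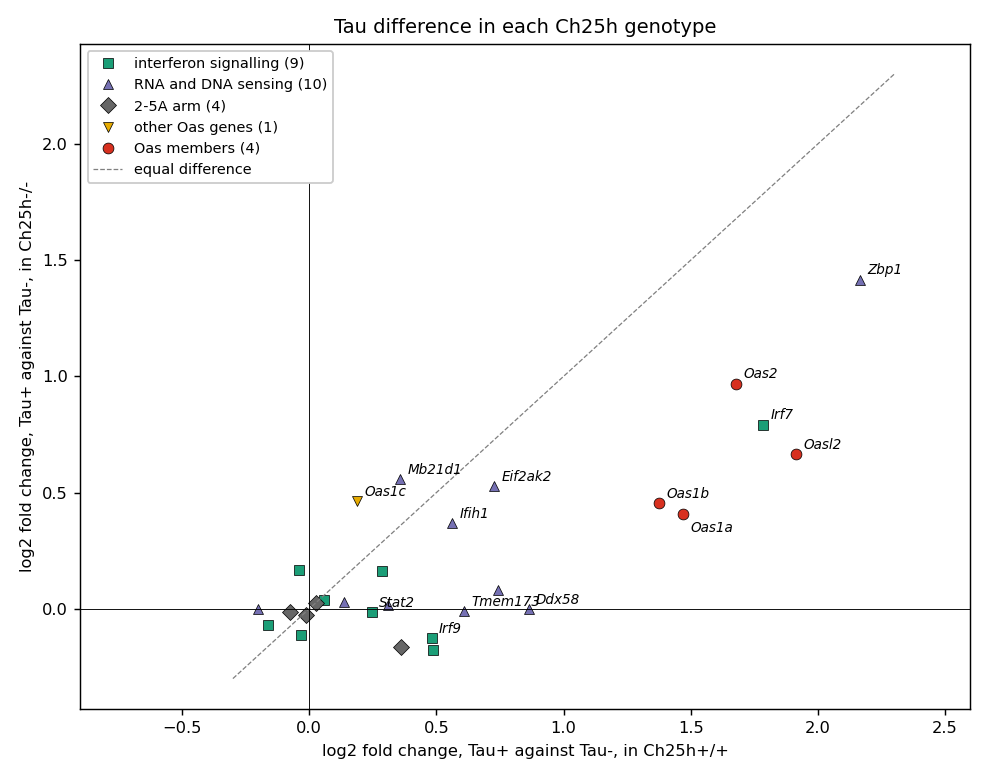
Log2 difference with tau in Ch25h+/+ (horizontal) and in Ch25h-/- (vertical) for the tested Oas genes and the genes of 4 lists, 1 point per gene, with the line of equal difference. Oasl2 (1.91 and 0.66) and Oas2 (1.68 and 0.97) lie to the right and below the line.

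Markers of microglia and the Oas genes both had their highest group means in Ch25h+/+ Tau+. The summed level of 10 microglial markers was 333 ± 10.6 CPM in Ch25h+/+ Tau-, 540 ± 65.6 in Ch25h+/+ Tau+, 327 ± 16.99 in Ch25h-/- Tau- and 344 ± 35.0 in Ch25h-/- Tau+ (SD, n = 4), and no marker was at 0. In edgeR 6 of the 10 rose with tau in Ch25h+/+, beside 1.47% of all tested genes called higher, and 7 fell with loss of Ch25h in Tau+, beside 2.40% called lower. With tau in Ch25h-/- edgeR called 0 of the 10, beside 0.0395% of all tested genes. Their median log2 difference there was 0.07, beside 0.56 for the 4 tested Oas genes and 0.01 over all genes. In the interaction 1 of the 10, C1qa, was called lower, beside 0.0338% of all tested genes. Astrocyte markers, 5 in all, summed to 889 ± 18.6, 1636 ± 466, 943 ± 119 and 1013 ± 83.6 CPM in the same order (SD, n = 4), of which 1, Gfap, was called higher with tau in Ch25h+/+ and lower with loss of Ch25h in Tau+. The median log2 difference of the 5 with tau in Ch25h+/+ was 0.19, and Gfap alone spanned 108 to 1312 CPM over the libraries. The 4 T cell markers, too low to be tested, had a summed range, again in that order, of 0.403 to 0.601, 0.697 to 1.31, 0.0603 to 0.663 and 0 to 0.587 CPM. The Ch25h+/+ Tau+ libraries lay above all others, but narrowly, with 0.697 CPM at the lowest beside 0.663 CPM in Ch25h-/- Tau- replicate 1. In that library 3 counts were worth 0.181 CPM. The markers were not fitted with the ribosomal RNA class as a covariate, so for loss of Ch25h class and genotype are not told apart here. The part of these cell types in the Oas differences was not tested.

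Within groups, the library with the highest microglial sum was the highest for some Oas genes in 3 groups and for none in Ch25h+/+ Tau+. In Ch25h+/+ Tau+ the microglial sum was 638 CPM in replicate 4, which had the lowest Oasl2 (7.19 CPM) and Oas2 (0.887 CPM). It was 502 CPM in replicate 1, which had the highest Oasl2, Oas1a, Oas1b, Oasl1 and Oas3. In Ch25h-/- Tau+ replicate 2 had the highest microglial sum (390 CPM) and the highest Oasl2, Oas2, Oas1b and Oasl1. In Ch25h-/- Tau- replicate 1 had the highest microglial sum (351 CPM) and the highest Oas1a, Oas1b, Oas2 and Oasl1. In Ch25h+/+ Tau- replicate 3 had the highest microglial sum (342 CPM) and the highest Oas1a, Oas2 and Oas3. Ch25h itself read 0.678 CPM in Ch25h+/+ Tau+ replicate 1, the lowest of that group, whose other libraries had 0.697 to 1.26 CPM.

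The genes whose pattern was most like that of the Oas genes were sought over the 16 libraries, by correlation with the mean log2 level of the members past the filter. Among 15717 candidates the 5 highest were Irf7 (Pearson r 0.96, Spearman rho 0.90), Rtp4 (0.95 and 0.75), Ifit3 (0.94 and 0.84), Ifit1 (0.94 and 0.92) and Ifit3b (0.94 and 0.87). Without the 2 libraries farthest from the median, Ch25h+/+ Tau+ replicates 1 and 2, r was 0.94, 0.88, 0.91, 0.92 and 0.91. After group means were taken out it was 0.85, 0.84, 0.78, 0.80 and 0.79. The points share group, library and depth, so these are descriptions.

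Each gene of the 6 was set against the mean of the other members past the filter in the same way. Oasl2 had the highest r (0.93), followed by Oasl1 (0.89), Oas1b (0.87), Oas1a (0.83), Oas2 (0.77) and Oas3 (0.68). By Spearman rho the order differed, with Oasl1 at 0.89, Oas2 at 0.83, Oas1a at 0.80, Oasl2 at 0.70, Oas1b at 0.69 and Oas3 at 0.32. Without the same 2 libraries r was 0.85, 0.85, 0.71, 0.57, 0.72 and 0.28 in the order of r. After group means were taken out it was 0.73, 0.70, 0.68, 0.58, 0.44 and 0.63. The values of Oas3 and Oas1a thus rested most on those 2 libraries.

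**Figure D5:**
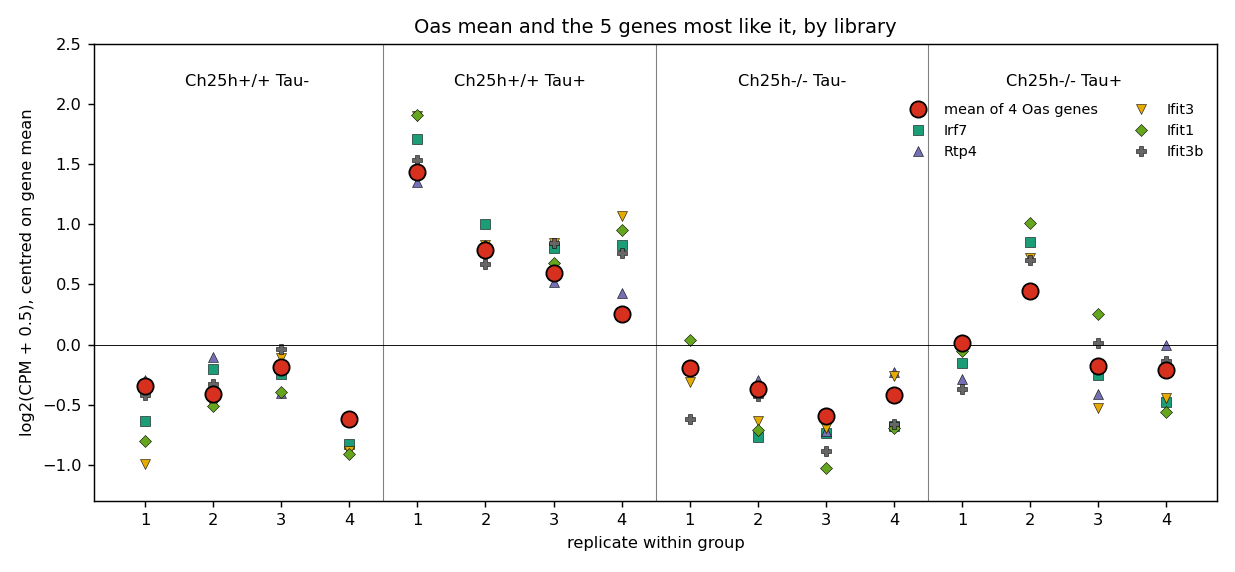
Level by library, as log2(CPM + 0.5) centred on each gene's mean, of the mean of the Oas genes past the filter (red) and of the 5 genes most like it, with libraries on the horizontal axis by group. All 6 series are highest in Ch25h+/+ Tau+ replicate 1.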

How the data were processed

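Per the labels, total RNA was extracted on columns and made into libraries with a SMARTer mRNA kit. Reads were aligned with STAR 2.7 to GRCm38/mm10, per the submitters' processing notes. The counting program and its use of strand are not given in the sources used here. The deposited values were raw read counts per gene for 16 libraries, with no normalization by the authors.

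Counts were fitted in 1 model with a mean per group, with edgeR 4.0.16 (TMM scaling, filterByExpr, quasi-likelihood F test, two-sided) in R 4.3.3. Benjamini-Hochberg adjustment ran over all 17736 tested genes at 0.05. Oasl1 was read from the same fit without the filter (33997 genes), and counts were compared with exact 95% Poisson-based intervals. Alternatives were DESeq2 1.42.0, limma-voom 3.58.1, other scaling and filters, a class covariate, the 8 compared libraries alone, and leaving out each library. The scripts were tested on simulated counts.

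The 6 genes and the gene lists were chosen with earlier results of these data known. Named were the 6 genes, listed Oas, 2-5A and signalling genes, and the 5 most correlated genes. Genes called in lists, Zbp1 and genes beside the clusters were named after their values were seen. Some listed genes are not reported here. Replicate numbers follow record order and pair nothing.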

Additional observations from a re-analysis of the deposited data

Results flagged for a closer look

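In 3 cases 1 library stood apart from the rest of its group, among 24 groups of 4 checked (6 genes in 4 groups), by Dixon's test of the gap to the nearest library against the group's range. Chance flags about 1 in 20 groups. Oas1b in Ch25h+/+ Tau+ replicate 1 read 2.90 CPM, beside 0.976 to 1.22 CPM in the other libraries of the group, and its tau difference without that library was 0.91 on the log2 scale. Oas3 in Ch25h-/- Tau+ replicate 1 read 0.196 CPM from 5 counts, beside 0 in the others. With the other 3 tied at 0, any count above 0 would have stood apart in this way, so the chance rate does not apply to it. Oasl1 in Ch25h-/- Tau- replicate 1 read 0.181 CPM from 3 counts, beside 0.0558 to 0.0603 CPM (1 count each) in the others. These 3 were tied in counts, so the chance rate does not apply here either.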

How the results depend on the processing

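No paired analysis was possible because the labels give no replicate numbers. The count of called genes for tau in Ch25h+/+ was 2. It became 4 without a filter (Oas1a, Oas2, Oasl1 and Oasl2), where 1.14% of genes were called. In DESeq2 it was also 4 (Oas1a, Oas1b, Oas2 and Oasl2), where that share was not computed. It became 1 with a mean of at least 50 counts (where only Oasl2 was tested), in limma-voom and with the 8 compared libraries alone. Leaving out 1 library gave 1 to 2. For Ch25h loss in Tau+ the count was 1, and became 2 without a filter (Oas1a and Oasl2, where 2.58% of genes were called). It became 0 with the class covariate and with the 8 compared libraries alone. Leaving out 1 library gave 0 to 2. The other 3 comparisons stayed at 0 called in each alternative run. Oasl2 kept its call for tau in Ch25h+/+ in each of the 24 alternatives (log2 1.50 to 2.11). Signs turned only for differences near 0 or at low counts. For Ch25h loss in Tau-, Oasl2 was -0.028 in limma-voom, -0.093 with the class covariate and -0.10 to 0.22 when 1 library was left out, Oas1b was -0.085 to 0.18 and Oas2 was -0.051 to 0.41. The interaction of Oasl1 was 0.056 in limma-voom and -0.72 to 0.25 when 1 library was left out. Adding the reads of Oas1g to Oas1a, chosen after seeing the data, changed no call. The cause of these shifts was not tested, except that fewer libraries or genes entered some fits. Depth limited Oas3 and Oasl1, whose counts were mostly at or under 3 in Tau- libraries.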

Other observations

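Genes within 200 kb of the Oas clusters were examined after the other values were seen. Of 43 such genes outside the Oas family, 20 were tested. Tau in Ch25h+/+ called 1 of them, Acads, a mitochondrial acyl-CoA dehydrogenase (log2 difference 0.56, edgeR adjusted p = 0.0281), beside 1.56% of all tested genes called. Loss of Ch25h called 1 in each tau status, Dtx1, a regulator of Notch signalling, at -0.25 in Tau+ (edgeR adjusted p = 0.0334) and -0.25 in Tau- (edgeR adjusted p = 0.0497), beside 3.55% of all tested genes called in Tau+ and 1.03% in Tau-. Neither gene had a called tau difference in Ch25h-/-.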
